A study of Mus musculus with 5 samples.

Results

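Tissue repair and peptide effector genes encode products that innate lymphocytes and their neighbours can release to act on epithelium, vessels and nerves. The set was a list of 10 named genes, Areg, Penk, Calca, Bmp2, Bmp7, Vegfa, Furin, Spp1, Lif and Retnla, of which 7 had a probe set that the platform annotation pairs with exactly 1 symbol. Each of the 7 had 1 such probe set. Areg, Calca and Spp1 were not analysed here. Retnla was among the 25% of genes with the lowest mean signal, which were left out of the test, so 6 of the 16635 genes tested were from the set.

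RNA came from group 2 innate lymphoid cells (ILC2s) of naive adult male mouse lung. The IL-33 knockout group had 2 arrays and the wild-type group had 3, each labelled as a biological replicate. Il33 itself read 3.79 and 3.95 on the arrays labelled knockout, against 3.37, 3.39 and 3.32 in wild type, so the targeted gene was not lower there but 0.51 higher, without overlap, at a signal under every array's median. Where its probes lie relative to the deleted part is not stated, so this value is no check of the labels, and "knockout" below means labelled so. Strain, age in weeks, the knockout allele, the sort gate and any pooling of mice are not stated in the labels. If the replicates were not separate mice, p-values measure only the spread between these samples.

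ILC2s sit in the lung at barrier sites and respond to alarmins, of which IL-33 is a main one, by releasing type 2 cytokines and repair factors. Amphiregulin, the product of Areg, is the repair factor best known from these cells and signals through the epidermal growth factor receptor. Several of the other products are made as inactive precursors. Furin, a convertase of the secretory pathway, cuts the precursors of bone morphogenetic proteins (BMPs), while neuropeptide precursors such as proenkephalin are cut mainly by related convertases of secretory granules. BMPs bind pairs of receptor kinases that act on SMAD proteins, vascular endothelial growth factor (VEGF) binds receptor kinases on endothelium, and leukaemia inhibitory factor (LIF) binds a receptor that shares the subunit gp130 with the IL-6 receptor.

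For orientation, the promoters of 3 of the genes are shown, from 250 bases before to 50 bases after the annotated start, as RefSeq gives them for build GRCm38.p6. Vegfa is shown as the gene with the widest distance between the knockout arrays, Furin as one whose signal lay high on every array, and Retnla as the one at the floor. Vegfa is at chr17:46032328-46032627 on the minus strand, Furin at chr7:80402763-80403062 on the minus strand and Retnla at chr16:48842359-48842658 on the plus strand. Capitals mark the GC box, spelled GGGCGG, and the TATA box, spelled TATAAA, each searched on both strands.
Vegfa: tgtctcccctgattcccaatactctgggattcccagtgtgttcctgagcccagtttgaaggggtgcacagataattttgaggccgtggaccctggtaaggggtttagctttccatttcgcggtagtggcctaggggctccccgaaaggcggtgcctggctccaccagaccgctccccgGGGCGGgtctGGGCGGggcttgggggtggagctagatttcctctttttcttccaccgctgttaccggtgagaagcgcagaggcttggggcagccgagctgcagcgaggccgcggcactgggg
Furin: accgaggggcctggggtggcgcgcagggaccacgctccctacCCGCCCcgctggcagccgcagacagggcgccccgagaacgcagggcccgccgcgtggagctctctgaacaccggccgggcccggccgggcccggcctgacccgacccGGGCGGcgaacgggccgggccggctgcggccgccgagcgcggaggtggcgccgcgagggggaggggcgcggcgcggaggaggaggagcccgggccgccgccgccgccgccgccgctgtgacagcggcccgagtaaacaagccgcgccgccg
Retnla: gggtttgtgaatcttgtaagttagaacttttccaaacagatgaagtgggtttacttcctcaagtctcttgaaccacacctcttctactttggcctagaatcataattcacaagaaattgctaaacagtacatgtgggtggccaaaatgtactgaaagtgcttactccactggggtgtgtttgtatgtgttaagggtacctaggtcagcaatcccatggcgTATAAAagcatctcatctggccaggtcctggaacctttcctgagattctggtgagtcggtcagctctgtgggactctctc
The Vegfa window held 2 GC boxes and 16 CpG dinucleotides, and a further annotated window of this gene held 1 GC box and 10. The Furin window, the more downstream of 2 annotated for this gene, held 2 GC boxes and 51 CpG dinucleotides. Its other window held a TATA box that began 23 bases before the start, no GC box and 7 CpG dinucleotides. Which start these cells use was not measured. The Retnla window held a TATA box that began 30 bases before the start, no GC box and 2 CpG dinucleotides. Among 32851 windows of this length, 35.7% held a GC box and 13.6% a TATA box, and the median window had 7 CpG dinucleotides. These letters are a description of the windows, and no binding or methylation was measured here.

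Some properties of the arrays touch every value below. The arrays reported 41345 probe sets as log2 signals, with lower quartiles of 3.24 to 3.27 and upper quartiles of 5.57 to 5.73. All 15 of the ILC2 markers that were measured, of 16 listed, lay above the array's median on all 5 arrays. Their summed signal, as log2, was 13.25 and 13.23 on the knockout arrays, against wild-type sums of 13.29 to 13.41, and 11 of the 15 differed downward with a median of -0.23. Without overlap of the groups, 3 of the 15 were higher and 3 lower in knockout, against 11.6% and 6.32% of all genes tested. The widest difference among them was upward, at 1.27 for Icos. The summed signal was lower on both knockout arrays, and its part in the differences below was not tested. Exactly equal values on different arrays were common: 63.6% of the genes tested had at least 2, 10.7% had the same value on all 3 wild-type arrays and 14.4% the same value on both knockout arrays. Knockout replicate 2 went against its label of male in part. Its signal for Xist, the transcript of the inactive X chromosome, was 7.91, against 3.10 on knockout replicate 1 and 2.35 to 3.10 in wild type. Y-linked genes went both ways. Eif2s3y read 6.14 there, against 7.07 on knockout replicate 1 and 6.83 to 7.62 in wild type, and Kdm5d read 4.79, against 5.57 and 5.57 to 5.63. Uty, at 7.17, was the highest of all 5 arrays there, against 6.95 on knockout replicate 1 and 5.83 to 6.96 in wild type. Knockout replicate 1 stood apart by 3 airway secretory transcripts, described below. Results are therefore also given without each knockout array, in fits that give the lone remaining array the spread of wild type.

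With limma and Benjamini-Hochberg adjustment over all genes, 0 of the 6 genes tested passed an adjusted p of 0.05, where 0% of all genes tested passed. At an unadjusted p below 0.05 the set also had 0 of 6, against 7.64% of all genes tested (5.05% higher and 2.59% lower in knockout). None of the 6 had both knockout arrays above or both below every wild-type array, against 18.0% of all genes tested (11.6% above and 6.32% below). The differences, in log2 units with wild type subtracted from knockout, ran from -0.16 for Furin to 0.72 for Bmp2, beside a median of 0.04 over all genes tested. A missed threshold does not show that the genotypes are alike, and with 5 arrays the intervals are wide.

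**Figure D1:**
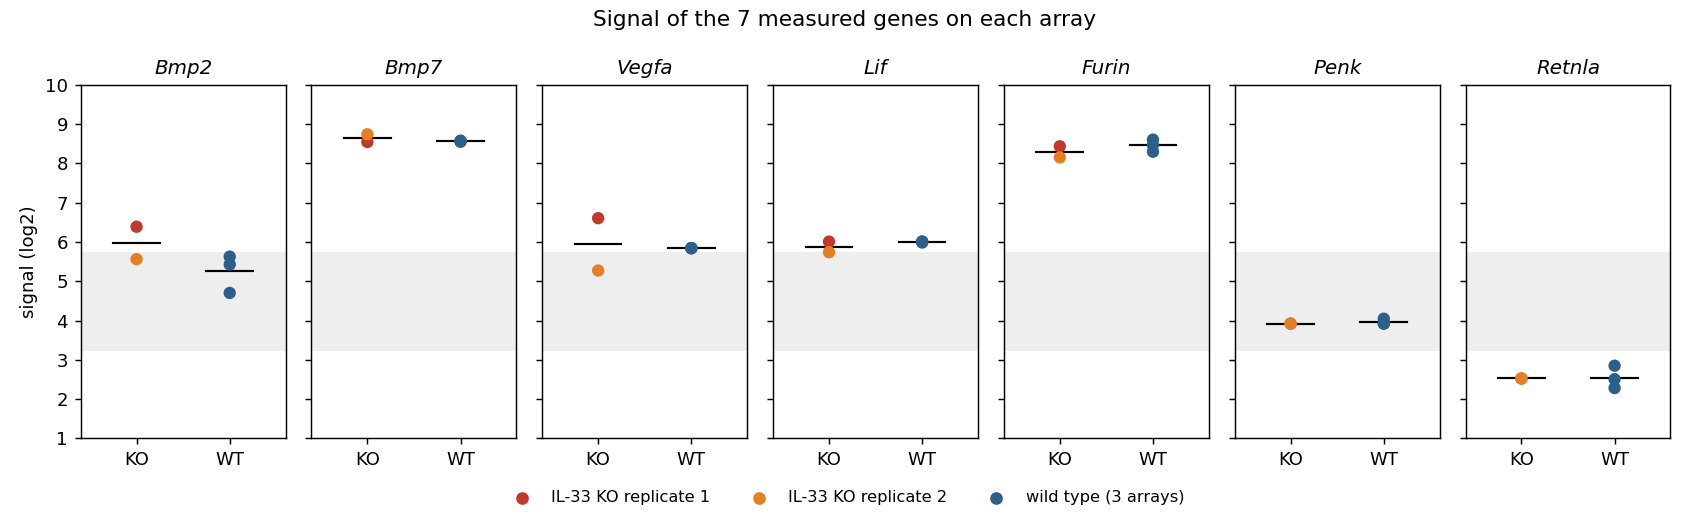
Log2 signal of each of the 7 measured genes (vertical axis) on the 2 IL-33 knockout arrays and the 3 wild-type arrays. Points are arrays, bars are group means, and the grey band runs from the lowest lower quartile to the highest upper quartile of all probe sets on the arrays; Bmp7 and Furin lie above the band and Retnla below it on every array, and in every panel the groups overlap.

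Of the morphogens, Bmp2 had the widest difference in the set. BMP2 is a secreted ligand of the transforming growth factor beta superfamily, known for its action on bone, vessels and epithelium. Its signal was 6.39 and 5.57 on the knockout arrays, against 5.63, 4.70 and 5.43 on the wild-type arrays. Knockout replicate 1 was above every wild-type array, while knockout replicate 2 lay below wild-type replicate 1, so that the groups overlapped. The mean was 5.98 ± 0.58 (SD, n = 2) in knockout and 5.25 ± 0.49 (SD, n = 3) in wild type, a 1.65-fold difference with a 95% interval of -0.46 to 1.90 on the log2 scale. Limma gave an adjusted p of 0.623. The difference was 1.14 with knockout replicate 1 alone and 0.31 with knockout replicate 2 alone, and neither passed. Bmp2 was also a gene with a wide spread inside each group: its SD between wild-type arrays was larger than that of 92.1% of genes tested.

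Bmp7 varied less between arrays than Bmp2, with a range of 0.20 over the 5 arrays against 1.69. BMP7 is a related ligand, best known from kidney development and from action against fibrosis. Its signal was 8.55 and 8.74 on the knockout arrays, against 8.55, 8.58 and 8.58 on the wild-type arrays. These signals lay above 96.5% to 97.2% of the probe sets on their arrays, and 1 knockout array was above all wild-type arrays while the other was, before rounding, just below them. The difference was 0.08 (SE 0.08), with an interval of -0.13 to 0.29 and an adjusted p of 0.683 from limma. With knockout replicate 1 alone it was -0.02, and with knockout replicate 2 alone it was 0.17. Those 2 fits rest on the spread of wild type, with an SD of 0.0142, and on limma's moderation.

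Vegfa, which encodes the main growth factor of blood vessels, lay on opposite sides of wild type on the knockout arrays. Its signal was 6.61 and 5.28 on the knockout arrays, against exactly 5.84 on each of the 3 wild-type arrays. Knockout replicate 1 lay above and knockout replicate 2 below the wild-type value, by 0.76 and by 0.57 log2 units. The distance between the knockout arrays was larger than for 96.7% of the genes tested. The difference of the means was 0.10 with an interval of -1.13 to 1.33, and the adjusted p from limma was 0.943. With 1 knockout array the gene passed in either direction: the difference was -0.57 with an adjusted p of 0.0183 without knockout replicate 1, and 0.76 with an adjusted p of 0.0320 without knockout replicate 2. Those fits called 6.44% and 2.34% of all genes. For Vegfa the 3 wild-type signals were identical, with an SD of 0, so the SE of 0.0150 behind both values came from limma's moderation over all genes and not from a measured spread of this gene.

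Lif encodes a cytokine of the IL-6 family with known roles in stem cells, nerve and lung inflammation. The knockout arrays read 6.01 and 5.74, against 6.01, 5.99 and 6.01 on the wild-type arrays. Knockout replicate 1 shared the exact value of wild-type replicates 1 and 3, and knockout replicate 2 was below all the others. The SD between wild-type arrays was 0.0137, and only 13.5% of genes tested had a smaller one. Fits with 1 knockout array rest on that spread and on limma's moderation. The difference was -0.13 (SE 0.10), with an interval of -0.40 to 0.14, and limma gave an adjusted p of 0.628. It was 0.01 without knockout replicate 2. Without knockout replicate 1 it was -0.26, with an adjusted p of 0.0423, so that the array with the high Xist signal alone decided that call.

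**Figure D2:**
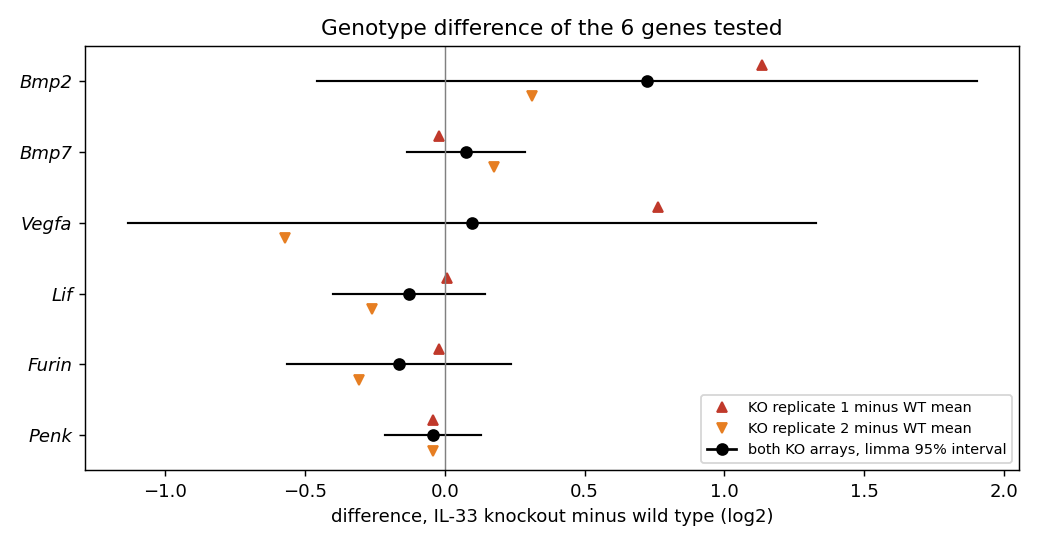
Difference in log2 signal, IL-33 knockout minus wild type (horizontal axis), for the 6 genes tested (rows). Black points and lines are the fit with both knockout arrays and its limma 95% interval, and triangles are each knockout array minus the wild-type mean; every interval spans 0, and the triangles of Vegfa lie on opposite sides of 0.

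Furin, the convertase, had signals of 8.44 and 8.15 on the knockout arrays, against 8.47, 8.30 and 8.61 on the wild-type arrays. The lower knockout array was below every wild-type array and the other was within their range. Furin lay above 95.7% to 96.8% of the probe sets on each array. Its difference was -0.16 (SE 0.14), with an interval of -0.56 to 0.24 and an adjusted p of 0.652 from limma. The sign was negative under all 15 alternatives, which range from -0.31 to -0.02, and none passed.

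The peptide precursor gene Penk and the secreted factor gene Retnla had low signals in both genotypes. Proenkephalin, the product of Penk, is cut into opioid peptides. The Penk probe set read 3.92 on both knockout arrays, against 4.05, 3.92 and 3.92 on the wild-type arrays. The value was exactly equal on 4 of 5 arrays and below every array's median. The difference was -0.04 (SE 0.06), with an interval of -0.21 to 0.13 and an adjusted p of 0.773 from limma. Retnla encodes RELM-alpha, a secreted protein of type 2 inflammation that macrophages, eosinophils and epithelium are known to make. Its signal was 2.53 on both knockout arrays, against 2.85, 2.28 and 2.51 on the wild-type arrays. All 5 values were below the lower quartile of the array, and the difference of -0.02 was left out of the test as dim. The files hold no detection call, so a low signal here is not shown to be the absence of the transcript.

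The signals belong to different probe sets, whose binding differs, so their order does not rank the transcripts. By position on the array, Bmp7 and Furin were above the upper quartile on all 5 arrays, as was Lif. Vegfa and Bmp2 crossed that quartile between arrays: Vegfa fell short of it on knockout replicate 2, and Bmp2 exceeded it on knockout replicate 1 alone. Of the 6 genes tested, 3 had a difference above 0 and 3 below, against 58.5% above 0 over all genes tested.

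By the profile over the 5 arrays, the genes nearest to Bmp7, the member with the highest mean, were St8sia2, Sorbs3 and Dnali1, at root mean square distances of 0.0103, 0.0116 and 0.0122 log2 units after each gene was centred on its own mean. All 3 shared the higher value on knockout replicate 2 and near-equal values elsewhere. Nearest to Bmp2, the member with the widest range, were Cd27, Ccny and Hes1, at 0.0674, 0.0802 and 0.0804 log2 units. Each of these was highest on knockout replicate 1 and lowest on wild-type replicate 2, as Bmp2 was. Such likeness over 5 arrays is a description of array profiles.

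Markers of other lung cells were not evenly spread over the arrays. The summed signal of 15 epithelial markers, on the log2 scale, was 10.28 on knockout replicate 1 and 8.75 on knockout replicate 2, against 8.37 to 8.51 in wild type. The airway secretory genes Scgb1a1, Bpifa1 and Scgb3a2 carried the gap between the knockout arrays: they read 8.81, 8.52 and 6.21 on replicate 1 and 5.93, 3.22 and 2.07 on replicate 2. Without these 3, which were picked after their values were seen, the sum of the other 12 was 8.46 and 8.48 in knockout, against wild-type sums of 8.16 to 8.33. Of all 15 markers, 8 were higher on replicate 1, 6 were higher on replicate 2 and 1 was equal. Against wild type, 12 differed upward and 3 downward, and 5 did so upward without overlap. Over all genes tested, 58.5% differed upward and 11.6% did so without overlap. Vegfa and Bmp2 were thus highest on the array with the 3 secretory transcripts, while the other epithelial markers did not separate the knockout arrays. Epithelium and endothelium are known sources of VEGF and BMP ligands, and the part of these cells in the signals was not tested. For 10 endothelial markers the sum was 8.72 and 9.22 in knockout, against wild-type sums of 8.48 to 8.57. Cldn5 and Cdh5 carried this, and without them the other 8 summed to 8.15 and 8.47, against 8.19 to 8.29, so that replicate 1 was below and replicate 2 above every wild-type array. Of the 10, 6 differed upward and 4 downward. For 13 macrophage and dendritic cell markers, among which are cells that make RELM-alpha and osteopontin, the sum was 7.86 and 7.84, against 7.69 to 8.09. The highest of these sums was on wild-type replicate 2, where Lyz2 read 5.58, against 2.98 and 2.47 on the other wild-type arrays. Neuroendocrine markers, of cells that make peptides in airway epithelium, summed to 7.44 and 7.33 in knockout and 7.27 to 7.35 in wild type over 9 genes. For 12 eosinophil, basophil and mast cell markers the sum was 8.06 and 8.31, against 7.78 to 8.02. For 10 fibroblast markers it was 7.606 and 7.665, against 7.536 to 7.598. Both of these sums were thus higher on each knockout array than on every wild-type array. For fibroblasts the gap was only that between 7.606 and 7.598. Of the 12 markers, 8 differed upward, 3 downward and 1 not at all, and of the 10, 6 upward and 4 downward. Most were dim: 16.7% of the 12 lay above the array median on each array, and 30% to 40% of the 10. T cell markers, over 9 genes, summed to 9.505 and 9.828, against 9.768 to 10.02. This sum mostly followed Cd3g, which read 9.10 and 9.51 in knockout and 9.43 to 9.74 in wild type. No other of the 9 read above 5.86 on any array. Of the 9, 6 differed upward and 3, Cd3g among them, downward. The part of these cells in the signals was not tested. In whole samples like these, fewer cells of a type and less RNA per cell cannot be told apart.

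**Figure D3:**
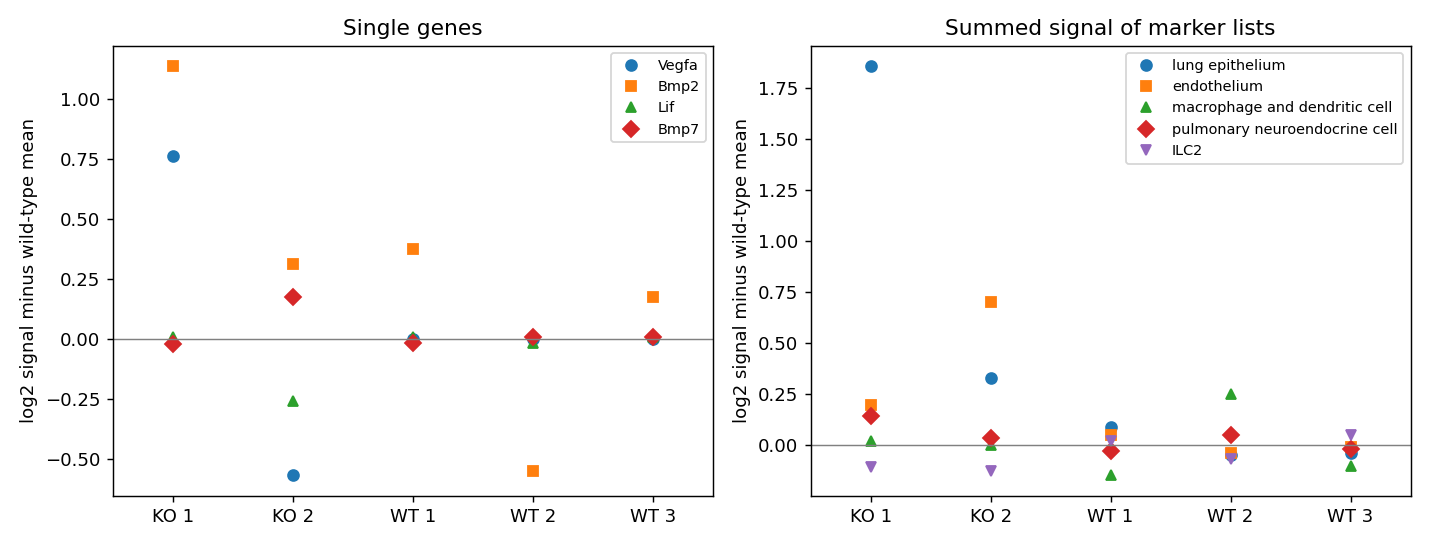
Log2 signal minus the wild-type mean (vertical axis) on each array for 4 of the genes (left) and log2 summed signal of 5 marker lists minus its wild-type mean (right). Points are single arrays; on knockout replicate 1 Vegfa, Bmp2 and the epithelial sum, raised by 3 secretory genes, stand highest, and on knockout replicate 2 Vegfa and Lif lie below the wild-type mean.

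The pathways around these products were read from 9 lists of ligands, receptors, enzymes and targets, in which 109 genes beside the 10 were named, 105 were measured and 89 tested. With limma 0 of 89 passed the adjusted threshold. At an unadjusted p below 0.05 there were 6 higher and 1 lower in knockout, together 7.87% of them, near the 7.64% of all genes tested. Without overlap of the groups, 14 were higher and 5 lower, 21.3% of the 89 against 18.0% of all genes tested. Their median difference was 0.06, against 0.04 over all genes. The counts and medians given below for single lists also include those of the 10 genes that belong to the list.

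In the BMP list 20 of 24 genes were tested, and 12 were above 0 and 8 below 0 in difference. Bambi, a decoy receptor that dampens BMP and transforming growth factor beta signals, had the lowest p. Its signal was 8.02 and 7.97 on the knockout arrays, against 7.33, 7.50 and 7.65 on the wild-type arrays, without overlap. The difference was 0.50 (SE 0.11), and limma's adjusted p of 0.478 did not pass. The ligand gene Bmp4 differed by 0.40 and the shared signal mediator gene Smad4 by -0.21, both with overlap, and the list's median was 0.04.

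The VEGF list had 10 of 12 genes tested, with a median of 0.13. Flt1, which encodes VEGF receptor 1 of endothelium, macrophages and other cells, read 5.15 and 4.63 on the knockout arrays, against 4.23, 4.28 and 4.10 on the wild-type arrays. Both knockout arrays were above all wild-type arrays, the difference was 0.69 (SE 0.18), and the adjusted p from limma was 0.541. Kdr, the gene of VEGF receptor 2 and itself on the endothelial list, differed by -0.15 in the opposite direction, also without overlap. It read 4.18 and 4.30 in knockout, against 4.39 on every wild-type array. Flt4, that of VEGF receptor 3, differed by 0.17. The endothelial sum was higher on both knockout arrays with Cldn5 and Cdh5 and on replicate 2 alone without them, as given above, and its part in these values was not tested.

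Receptors for the peptides showed differences both ways. Calcrl encodes the receptor that binds the calcitonin gene-related peptide, a product of Calca, when paired with RAMP1, and binds adrenomedullin when paired with RAMP2 or RAMP3. Its signal was 7.03 and 5.74 on the knockout arrays, against 7.05, 7.08 and 7.79 on the wild-type arrays. The higher knockout array was only just below the lowest wild-type array. Ramp3 read 7.01 and 6.74 in knockout and 6.56, 6.56 and 6.52 in wild type, a difference of 0.33 (SE 0.10). Ramp2 differed by 0.58 without overlap and Ramp1 by -0.01. All 9 listed receptor genes were tested, the median was 0.04, and limma's lowest adjusted p was 0.557.

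Among 13 neuropeptide precursor genes tested of 18 listed, 10 were above 0 and the median was 0.17. Pomc, the precursor gene of melanocortins and beta-endorphin, read 5.34 and 5.01 on the knockout arrays, against 4.36, 4.77 and 4.57 on the wild-type arrays. The groups did not overlap, the difference was 0.61 (SE 0.18), and the adjusted p from limma was 0.557. Adcyap1 differed by 0.17 without overlap and Nmu, the gene of neuromedin U, by 0.26 with overlap. Most of these probe sets lay near the array median or below it. Of the convertases and trimming enzymes, 8 of 10 were tested with a median of -0.06. Pcsk4, a convertase known mainly from germ cells, differed by 0.16, and Cpd, a carboxypeptidase that trims the ends furin leaves, by -0.56, both without overlap. Pcsk5, another convertase gene, differed by 0.34 with overlap.

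The epidermal growth factor list, read here beside Areg, had 12 of 15 genes tested and a median of -0.02. The receptor gene Erbb3 differed by 0.18 and the ligand gene Ereg by 0.21, both without overlap at low signals. Ereg had 2 probe sets, of which the brighter was used. Adam10, a protease that sheds such ligands, differed by -0.20 with overlap. No gene of this list had an unadjusted p below 0.05, and limma's lowest adjusted p in it was 0.623.

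In the IL-6 family, 11 of 15 genes were tested and the median was 0.13. Osm, the gene of oncostatin M, read 4.65 and 4.43 on the knockout arrays, against 4.78, 4.83 and 4.78 on the wild-type arrays, a difference of -0.25 (SE 0.08) without overlap. Its receptor gene Osmr differed by 0.33, also without overlap, and the feedback inhibitor gene Socs3 by 0.35 with overlap. The adjusted p of Osm from limma was 0.604. Lifr, the receptor gene for LIF, was left out as dim.

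Of the resistin family 2 of 4 genes were tested: Retnlb differed by 0.55, with 1 knockout array at 4.44 and the other within the wild-type range, and Retn by 0.08. Retnlg, left out as dim, read 5.36 on wild-type replicate 2, against 2.51 and 2.00 on wild-type replicates 1 and 3. It read 3.13 on both knockout arrays. The list around osteopontin, the product of Spp1, had 10 of 12 genes tested and a median of -0.02. Itgb5, an integrin chain that pairs with the alpha V chain to bind osteopontin, read 4.34 and 4.07 on the knockout arrays, against 3.82 on each of the 3 wild-type arrays. Its difference of 0.39 (SE 0.10) had an adjusted p of 0.514 from limma. Itga4, an integrin chain of lymphocyte homing, differed by -0.52 without overlap, and Itga9 by 0.24 with overlap.

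Single knockout arrays decided calls in these lists as well. Without knockout replicate 1, 9 of the 89 genes passed, 10.1% of them against 6.44% of all genes tested, and without knockout replicate 2, 3 passed, 3.37% against 2.34%. The 9 were Bmpr1a, Calcr, Ereg, Grp, Id3, Itgb5, Osmr, Pcsk7 and Retnlb, and the 3 were Id3, Itgb5 and Ramp3. Itgb5 was above wild type on both arrays. Bmpr1a, Calcr, Id3 and Itgb5 had the same value on all 3 wild-type arrays. For the other genes named as passing, the wild-type SD ran from 0.0128 for Grp to 0.0504 for Retnlb. The median over all genes tested was 0.1447. These calls, like those of Vegfa, rest on that small spread and on limma's moderation. Id3, a BMP target gene, read 4.49 and 3.94 on the knockout arrays, against 4.22 on each wild-type array, so that its calls ran in opposite directions, as those of Vegfa did. The genes listed here beyond the rule were named after their values were seen.

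**Figure D4:**
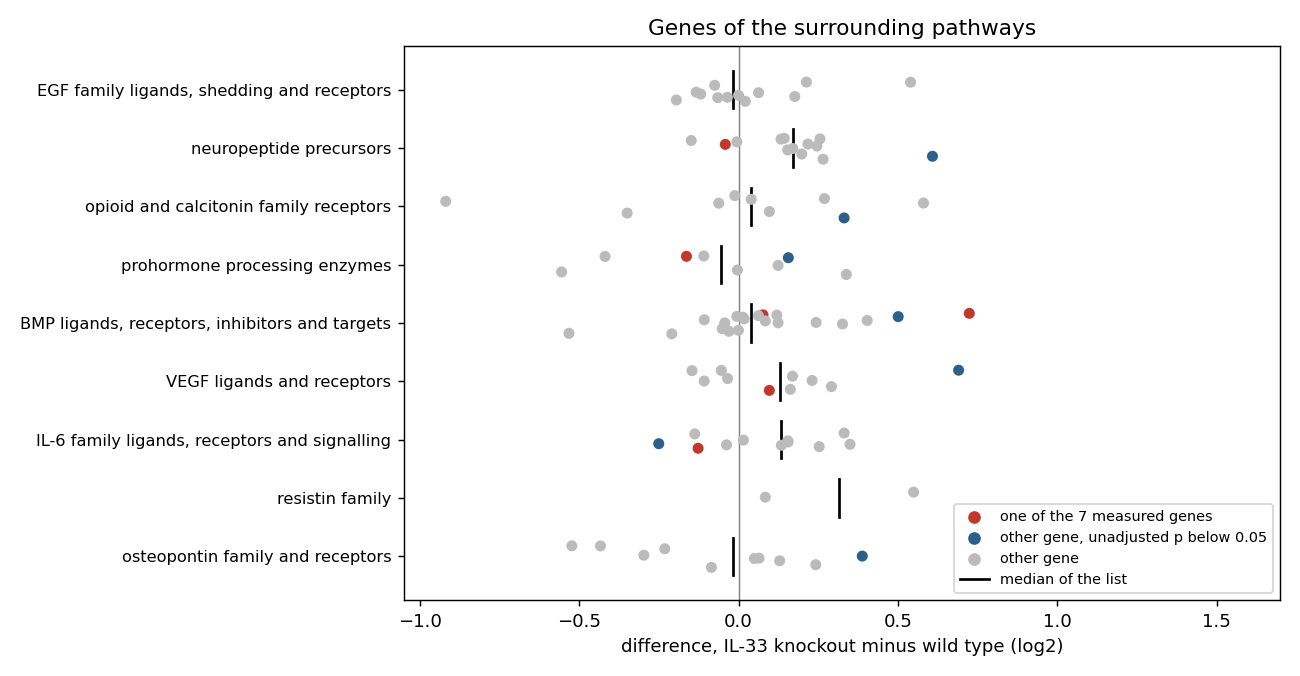
Difference in log2 signal, IL-33 knockout minus wild type (horizontal axis), of each gene tested in the 9 pathway lists (rows). Points are genes, with the measured effector genes in red and other genes of an unadjusted p below 0.05 in blue, vertical spread within a row has no meaning, and black bars are list medians, which lie between -0.06 and 0.32.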

How the data were processed

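Total RNA extracted with Trizol was labelled with a biotin kit and hybridised, per the labels' protocols. The authors deposited log2 signals per probe set, and Affymetrix Expression Console and RMA are named in the submitters' processing notes. For versions, settings and summary level, nothing is given in the sources used here. RMA commonly includes a quantile step, after which a shift shared by all transcripts would not show.

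Of 41345 probe sets, 23521 had 1 symbol in the platform annotation, and the one with the highest mean was taken for each of 22180 genes. The dimmest 25% were dropped, which left 16635. Knockout was compared with wild type by limma 3.58.1 (R 4.3.3; lmFit, eBayes, Benjamini-Hochberg over all genes, threshold 0.05), with no block. Exact permutation of 5 arrays cannot go below p = 0.1 and was not used for single genes. On 2 and 3 simulated arrays of these 16635 genes, the fit recovered 28% of genes changed 2-fold, 64% at 4-fold, 86% at 8-fold and 94% at 16-fold (50 each). It called 8 of 16435 unchanged genes. These rates describe the simulated arrays only, and in the deposited data the lowest adjusted p from limma was 0.327. Gene positions and promoters are RefSeq's (GRCm38.p6), and the files name no build.

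Named genes were all members, up to 3 further genes of lowest p per pathway list, the 3 profiles nearest to each of 2 members, and label checks. Ramp1 and Lifr were named beyond this rule. Members, lists and tests were chosen with earlier results of these data known. Eif2s3y, Kdm5d, Uty, Scgb1a1, Bpifa1, Scgb3a2, Cldn5, Cdh5, Retnlg, Lyz2, Cd3g and Icos were picked after their values were seen. Alternatives covered the filter, probe sets, normalization, variance model, array weights, the replicate number and leaving out each array. A limit to genes with at least 4 distinct values was added after the data were seen.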

Additional observations from a re-analysis of the deposited data

How the results depend on the processing

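Across 15 alternatives, 0 genes and 0 members passed under every one that kept both knockout arrays. Leaving out each array in turn gave 0 to 1072 genes and 0 to 2 members. The higher numbers came from the knockout arrays: 1072 genes and 2 members (Vegfa and Lif) without knockout replicate 1, and 389 genes and 1 member (Vegfa) without knockout replicate 2. Over the same omissions Vegfa ranged from -0.57 to 0.76, Lif from -0.26 to 0.0079 and Bmp7 from -0.0212 to 0.17, with the sign turned without knockout replicate 1 for Vegfa and without knockout replicate 2 for Lif and Bmp7. Bmp2 stayed above 0 in all 15 alternatives run on it and Furin below 0 in all 15. Penk, with 13, was 0 without wild-type replicate 1 and below 0 otherwise. Retnla could be fitted only without the filter on dim genes, at -0.02. With the replicate number as a block, 0 genes passed, 1114 had an unadjusted p below 0.05 and the 6 members kept their directions. Bmp2 was among the 1114, at 0.81 (SE 0.07) with an unadjusted limma p of 0.0102 and an adjusted p of 0.725. Deviations of same-numbered arrays from their group means correlated at -0.046 and 0.143 across genes. The 2 knockout deviations mirror each other and differently numbered arrays were not compared. These values therefore cannot show whether the numbers mark pairs, and the main fit used no block. Vegfa, Lif and Penk have fewer than 4 distinct values and drop out of the alternative that asks for them. The cause of the differences between knockout arrays was not tested.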
